A study of Mus musculus with 47 samples.

Results

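Wasting muscle breaks down its contractile proteins largely through the ubiquitin-proteasome system. The 7 genes described here encode 6 ubiquitin ligases and 1 precursor of ubiquitin itself: Fbxo32, Trim63, Fbxo30, Fbxo21, Nedd4, Traf6 and Ubb. They were taken by gene symbol from the 24391 genes of each deposited count table, and all 7 passed the filter on low counts in each of the 3 tissues.

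Transcripts were counted in gastrocnemius muscle, white adipose tissue and brown adipose tissue of C57Bl6 mice, collected 21 days after the tumour cells were given. The NTB group had no tumour, and no antibody or dose is stated for it. The other groups carried HT1080, a fibrosarcoma line of human origin, and were treated either with an IgG1 control antibody or with 3P10, which binds GFRAL, the receptor in the hindbrain for the circulating factor GDF15. The weekly dose of each antibody was 3 mg/kg, beginning on the inoculation day, so IgG1 against NTB joins the effects of the tumour and of the control antibody. The immune status of mice that accepted human cells, and the age and sex of the mice, are not given in the sources used here. Muscle and white fat had 5 libraries per group, and brown fat had 6 NTB, 5 IgG1 and 6 3P10 libraries. Libraries are separate samples by their labels, but nothing says that each came from its own animal, so p-values measure the spread between these samples.

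Ubiquitin is first activated, then passed to a conjugating enzyme, and then placed on a substrate that a ubiquitin ligase has chosen. In skeletal muscle, fasting, denervation, glucocorticoids and tumours are known to raise Fbxo32 and Trim63, whose products are the best known markers of atrophy. Fbxo32 encodes atrogin-1, the substrate-binding subunit of a cullin-based ligase, and Trim63 encodes MuRF1, a RING ligase that acts on thick-filament proteins. Fbxo30 and Fbxo21 encode further F-box proteins tied to atrophy, named MUSA1 and SMART. Nedd4 encodes a HECT-type ligase, Traf6 a RING ligase that works in cytokine signalling, and Ubb a chain of ubiquitin repeats that is cut into free ubiquitin.

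Promoter sequence was matched by symbol for 6 of the 7 genes, all but Fbxo32, in 8 windows of RefSeq on GRCm38.p6, each reaching from 250 bases before to 50 bases after a transcript start. Both strands of each 300-base window were searched for 5 short motifs of factors known to act on atrophy genes. These were GTAAACA for forkhead factors such as FoxO, GAACA and TGTTC with 3 bases between them for the glucocorticoid receptor, TTGCGCAA for C/EBP factors, TTCCNGGAA for STAT factors and CAGCTG for myogenin and MyoD. The 250 upstream bases of Trim63 are shown because that window held 3 of the 5 motifs, and those of Fbxo21 because Fbxo21 passed the test in both fat tissues and its window held none. Capitals mark motif matches, and both genes lie on the forward strand.
Trim63, chr4:134314870-134315119: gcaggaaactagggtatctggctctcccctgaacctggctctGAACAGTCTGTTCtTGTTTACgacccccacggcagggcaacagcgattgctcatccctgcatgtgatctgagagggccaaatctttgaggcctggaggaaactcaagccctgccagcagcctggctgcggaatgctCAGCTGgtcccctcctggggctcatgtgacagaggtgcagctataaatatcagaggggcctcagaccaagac
Fbxo21, chr5:117976520-117976769: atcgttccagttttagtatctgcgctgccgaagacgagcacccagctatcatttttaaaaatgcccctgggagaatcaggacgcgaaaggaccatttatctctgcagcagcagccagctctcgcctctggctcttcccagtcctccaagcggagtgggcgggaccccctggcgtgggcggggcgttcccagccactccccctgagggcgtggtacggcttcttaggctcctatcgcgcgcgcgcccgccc

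In the Trim63 window the glucocorticoid receptor palindrome read GAACAGTCTGTTC at positions -208 to -196 from the transcript start. The forkhead motif followed on the reverse strand, as TGTTTAC, at -194 to -188, and CAGCTG lay at -72 to -67, with no overlap between the 3. Among 32851 mouse promoter windows of the same length, 19 (0.0578%) held the glucocorticoid receptor palindrome, 3.65% the forkhead motif and 16.3% CAGCTG. TTGCGCAA stood in 0.183% of those windows and TTCCNGGAA in 1.15%. Of the other windows, 1 of Nedd4 held CAGCTG, 1 of Ubb held TTCCGGGAA, and those of Fbxo30 and Traf6 held no match. A match describes the letters of the window and not the binding of a factor.

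Library totals were 24759436 to 33502175 counts in muscle, 18621423 to 80661547 in white fat and 798886 to 2459761 in brown fat. In muscle, 4 libraries stood apart on the first principal component, which held 42.3% of the variance: NTB 3, IgG1 2, IgG1 4 and 3P10 2. In their titles they carry the bracketed numbers 16, 14, 23 and 15, higher than those of the other 11 muscle libraries, and the meaning of those numbers is not given. Their summed CPM (read counts relative to the TMM-scaled library total) of 10 fast-fibre markers was 255041 to 361473, against 171669 to 233526 in the other 11. Their 10 endothelial markers summed to 121 to 177 CPM, against 210.3 to 366 CPM. In white fat, IgG1 2 and IgG1 4, with the bracketed numbers 14 and 23, stood apart from the other 13 libraries. IgG1 4 was also the deepest there, with 80661547 counts, and the next deepest, NTB 3, had 34445578. In brown fat the first component held 17% of the variance and placed all 6 3P10 libraries beyond the other 11. The split was narrow for 3P10 1, at 7.78 beside IgG1 4 at 7.23, and the other 3P10 libraries lay at 15.3 to 23.7. The label numbers of brown fat run in blocks of 1 group each, so their order and the group cannot be told apart. Muscle libraries had reads of every skeletal muscle and satellite cell marker listed, and white fat libraries of every adipocyte marker. In brown fat, 2 IgG1 libraries had 1 of the 10 adipocyte markers at 0.

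In gastrocnemius muscle, Fbxo32 was the 1 member of the 7 that passed the test in tumour-bearing IgG1 mice against NTB mice, where 744 of 13283 genes, 5.6%, passed. It rose by 1.45 on the log2 scale (SE 0.30, adjusted p = 0.0125), a fitted 2.73-fold. A gene is said to rise or fall where the Benjamini-Hochberg adjusted p of edgeR's quasi-likelihood test, taken over all genes of the tissue, was under 0.05. The median log2 fold change was 0.51 over the 7 genes and 0.01 over all genes. At an unadjusted p under 0.05, 4 of the 7 passed, as did 20.8% of all genes.

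The Fbxo32 level in NTB replicates 1 to 5 was 417, 302, 362, 342 and 295 CPM. In IgG1 it was 417, 1590.0, 746, 1408 and 525 CPM, and in 3P10 it was 457, 507, 605, 490.2 and 405 CPM. IgG1 2 and 4 were far above every other library, IgG1 1 lay at the top of the NTB range, and 4 of 5 IgG1 libraries exceeded every NTB library. The mean was 344 ± 49.5 CPM in NTB, 937 ± 530.3 in IgG1 and 493 ± 73.7 in 3P10 (SD, n = 5 each).

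Both high IgG1 libraries were among the 4 that stood apart. The 4 were set by the largest gap on the first component of these same counts. Fits without them or with their side as a term are thus not an independent check. Without the 4, Fbxo32 still rose, by 0.73 (SE 0.19, adjusted p = 0.0382), where 4 NTB libraries spanned 295 to 417 CPM and 3 IgG1 libraries 417 to 746 CPM. With the side on which a library lay as a term of the fit, the rise was 1.16 (SE 0.24, adjusted p = 0.00392). In that fit 2455 of 13283 genes passed, against 744 in the main fit. Leaving out any 1 library kept the call, with values from 1.17 to 1.63. NTB 3 and 3P10 2, which also stood apart, had 362 and 507 CPM and lay within their groups.

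Trim63 in NTB was at 257, 233, 429, 306 and 244 CPM, in IgG1 at 263, 883, 391, 764 and 274 CPM, and in 3P10 at 298, 481, 367, 374 and 264 CPM. The same IgG1 2 and 4 were highest, and the libraries that stood apart were also the highest of NTB and of 3P10. Its IgG1 against NTB log2 fold change was 0.81 (SE 0.32, adjusted p = 0.154), with 3 of 5 IgG1 libraries above the NTB mean. Without the 4 libraries it was 0.25 (adjusted p = 0.384), where NTB spanned 233 to 306 CPM and IgG1 263 to 391 CPM.

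**Figure D1:**
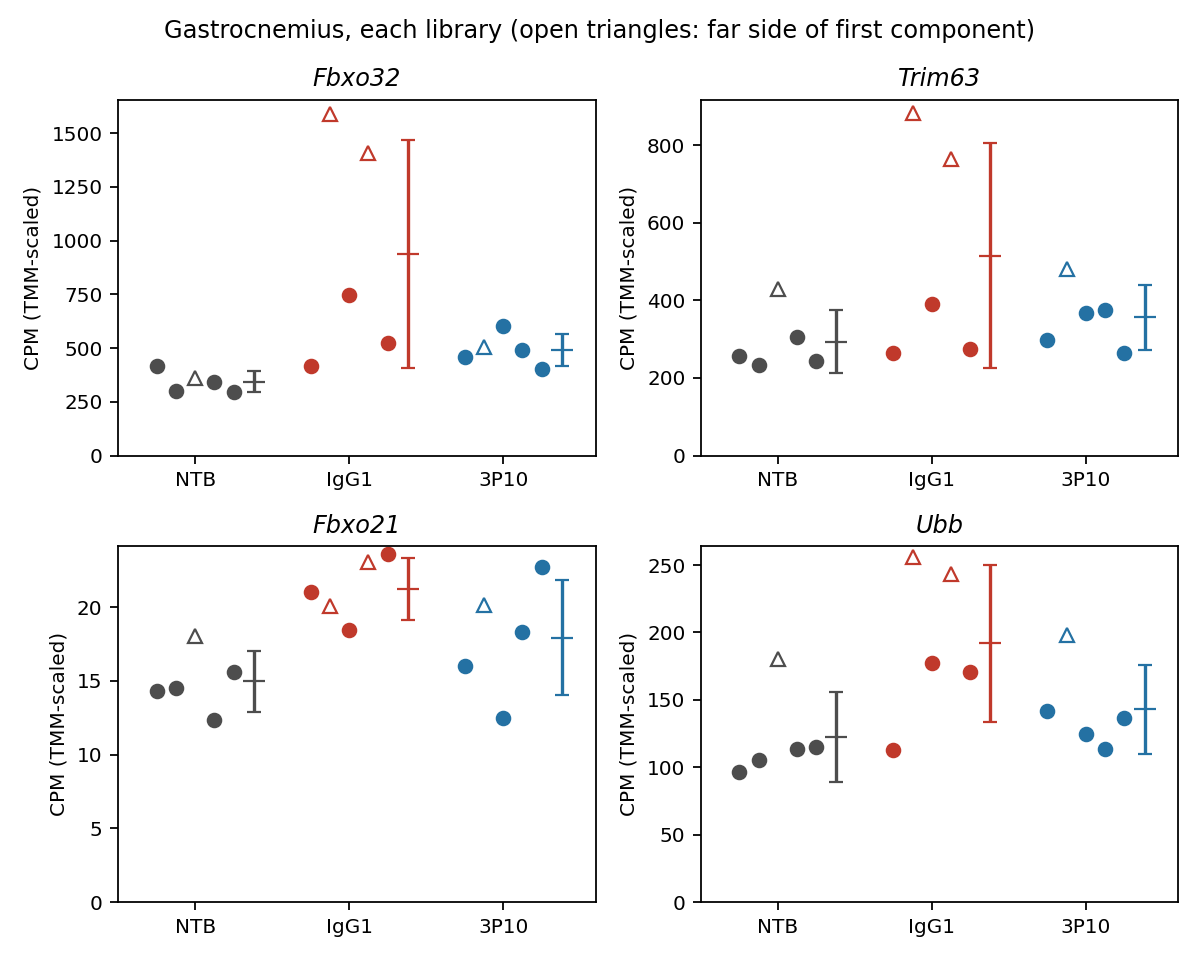
CPM of Fbxo32, Trim63, Fbxo21 and Ubb in each gastrocnemius library, in replicate order within NTB, IgG1 and 3P10. Open triangles are the 4 libraries that stood apart, and the bars give mean ± SD over 5 libraries. Fbxo32 in IgG1 2 and 4 lay at 1590.0 and 1408 CPM, while no 3P10 library exceeded 605 CPM.

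Against IgG1, 0 of the 7 genes passed in 3P10 muscle by edgeR and 0 by DESeq2, with 1 at an unadjusted p under 0.05, as had 10.8% of all genes. In that comparison 28 genes, 0.211%, passed. Fbxo32 was lower in 3P10 by its estimate of -0.93 (SE 0.30, 95% interval -1.58 to -0.28, adjusted p = 0.237). All 5 3P10 libraries lay below the IgG1 mean, though 1 of 5 lay below the lowest IgG1 library. Without IgG1 replicate 1 the value was -1.12 (adjusted p = 0.0463), and without the 4 libraries that stood apart it was -0.20 (adjusted p = 0.689).

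The Trim63 estimate in 3P10 against IgG1 was -0.53 (SE 0.32, adjusted p = 0.594), and 0.08 without the 4 libraries. Against NTB, 3P10 muscle had 0 called genes by edgeR (0%), 15 by DESeq2 and 4.24% at an unadjusted p under 0.05, and Fbxo32 gave 0.52 (SE 0.30, 95% interval -0.13 to 1.17, adjusted p = 1), with 5 of 5 3P10 libraries above the NTB mean. The 3P10 comparisons share libraries with IgG1 against NTB, so these values are set side by side and not counted as separate evidence.

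For Fbxo21, IgG1 and NTB muscle libraries did not overlap. It read 14.3, 14.5, 18.1, 12.3 and 15.6 CPM in NTB, and 21.0, 20.1, 18.4, 23.1 and 23.6 CPM in IgG1. In 3P10 it was 16, 20.1, 12.5, 18.4 and 22.7 CPM, across both ranges. Groups did not overlap for 6.38% of genes in IgG1 against NTB, and for 1 of the 7. Its log2 fold change was 0.51 (SE 0.15, adjusted p = 0.0652). With the side of the 4 libraries as a term it was 0.48 (adjusted p = 0.0234), where 2455 genes passed in all.

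Ubb in NTB was at 96.7, 105, 181, 113 and 115 CPM, in IgG1 at 113, 256, 177, 243 and 171 CPM, and in 3P10 at 142, 198, 125, 114 and 136 CPM. In every group the highest library was one that stood apart, as with Trim63. Its estimate for IgG1 against NTB was 0.65 (SE 0.23, adjusted p = 0.110). With the side as a term it was 0.51 (adjusted p = 0.00650), where 2455 genes passed in all. Reads of repeated ubiquitin sequence may be split or lost in counting, so the values of Ubb are uncertain.

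Nedd4 gave 0.25 (SE 0.26, adjusted p = 0.643) in IgG1 against NTB muscle. Its lowest values were in the libraries that stood apart: 228 CPM in NTB 3, 261 in 3P10 2, and 449 and 470.1 in IgG1 2 and 4, against 507 to 702 CPM in the other 11. With the side as a term Nedd4 passed (adjusted p = 0.0250), and 4 of the 7 genes did. Of all 13283 genes, 2455 passed in that fit, against 744 in the main fit.

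Traf6 ranged from 15.5 to 20.8 CPM over the muscle libraries, with a log2 fold change of -0.01 (SE 0.11, 95% interval -0.25 to 0.23) in IgG1 against NTB. Fbxo30 ranged from 6.80 to 14 CPM and gave -0.17 (SE 0.21, 95% interval -0.63 to 0.29). In 3P10 against IgG1 these genes gave 0.02 for Traf6, 0.22 for Fbxo30 and -0.14 for Nedd4, with adjusted p from 0.807 to 0.983.

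**Figure D2:**
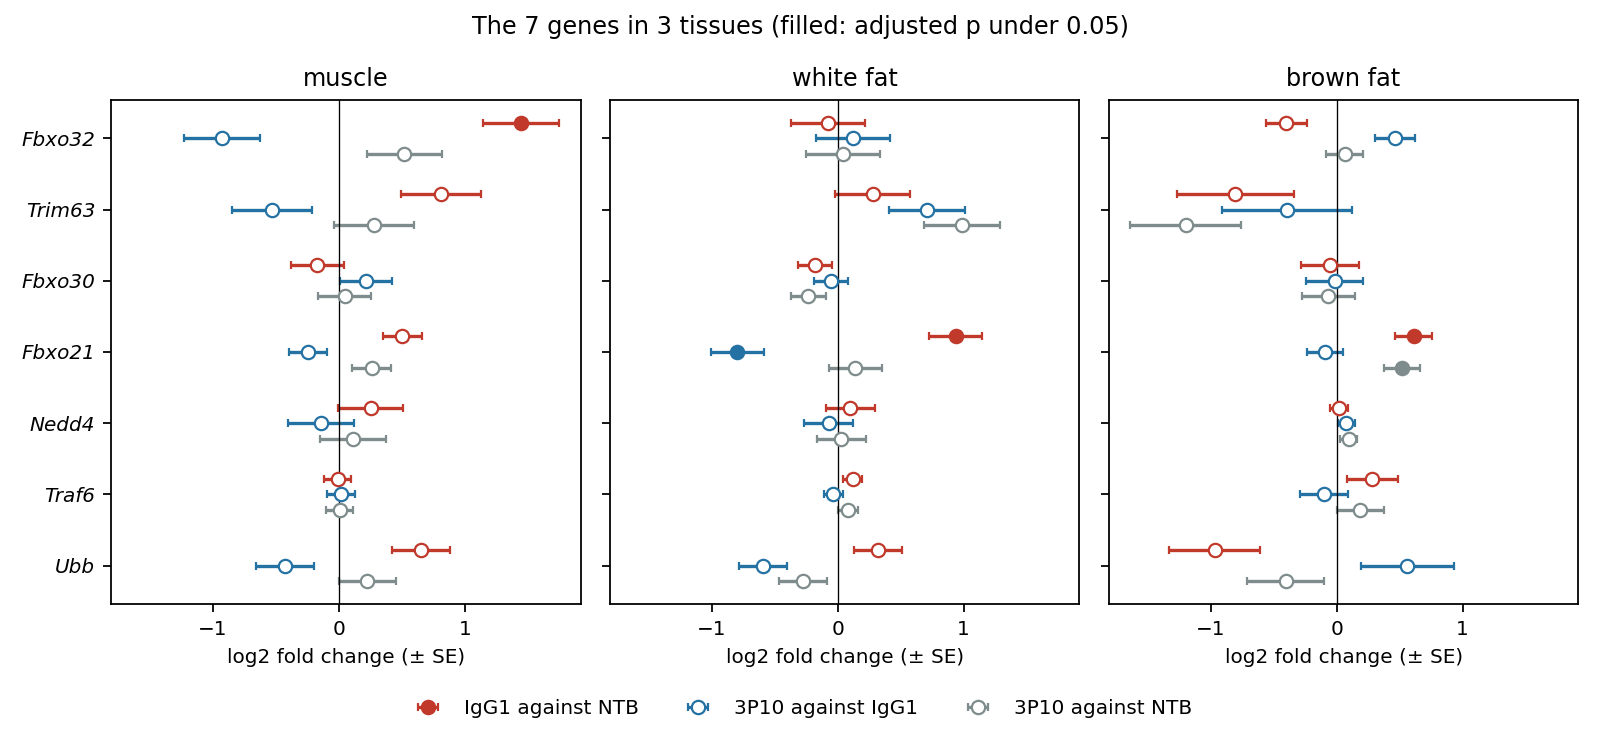
Log2 fold change ± SE of the 7 genes in muscle, white fat and brown fat for 3 comparisons; filled points passed at adjusted p under 0.05. Fbxo32 passed in muscle, and Fbxo21 passed in white fat in both comparisons with IgG1 and in brown fat in both comparisons with NTB.

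Some genes of a regulator list for Fbxo32 and Trim63 also rose in IgG1 muscle. That list also holds glucocorticoid response genes, such as Fkbp5 and Ddit4. Of its 25 genes, 8 rose and 0 fell in IgG1 against NTB, where 2.68% of all genes rose. The median over the 25 was 0.19, against 0.01 over all genes. Without the 4 libraries that stood apart 10 rose, among them all 8, where 876 genes passed in all in either direction. The list was written with earlier results of these data known. Bulk RNA cannot tell fewer cells of a type from less RNA per cell.

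Ddit4, a stress-induced inhibitor of mTOR signalling that glucocorticoids raise, was at 8.0, 8.42, 5.35, 9.05 and 12.3 CPM in NTB and at 17.8, 58.2, 220.2, 239.8 and 24.7 CPM in IgG1. In 3P10 it ran from 5.31 to 15.3 CPM, below every IgG1 library. It rose by 3.70 (SE 0.63, adjusted p = 0.00408) and in 3P10 against IgG1 fell by 3.58 (SE 0.63, adjusted p = 0.0294). Without the 4 libraries the latter value was -3.07 (adjusted p = 0.0868).

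Cebpd, a C/EBP transcription factor gene, was at 8.04, 9.87, 31, 7.86 and 9.40 CPM in NTB, at 84.6, 168, 88.9, 201 and 32.4 CPM in IgG1, and at 28.8, 15.6, 14, 14 and 8.97 CPM in 3P10. IgG1 lay above both other groups in every library. It rose by 3.13 (SE 0.51, adjusted p = 0.00294) and fell by 2.82 (SE 0.50, adjusted p = 0.0294) in 3P10 against IgG1, and by 2.06 (adjusted p = 0.0412) without the 4 libraries. These were the 2 of 25 that fell in 3P10 in the main fit, where 0.12% of all genes fell. With the side of the 4 libraries as a term, Klf15 (-0.67, adjusted p = 0.0203) and Cebpb (-0.59, adjusted p = 0.0477) also fell, where 668 genes passed in all. Fkbp5 and Hdac5 did not pass in that fit.

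Fkbp5, a glucocorticoid-induced chaperone gene, rose by 1.54 (SE 0.32, adjusted p = 0.0116), the NTB mean being 43.2 ± 16.8 CPM and the IgG1 mean 125 ± 36.1 CPM (SD, n = 5 each). Klf15, a target of the glucocorticoid receptor that is known to act on both ligase genes, rose by 0.90 (adjusted p = 0.0177). Cebpb rose by 1.04 (adjusted p = 0.0100) and Hdac5, a histone deacetylase gene, by 0.54 (adjusted p = 0.0195). The other genes that rose were Junb and Stat3. The FoxO factors are also governed by phosphorylation, which transcript counts do not measure.

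**Figure D3:**
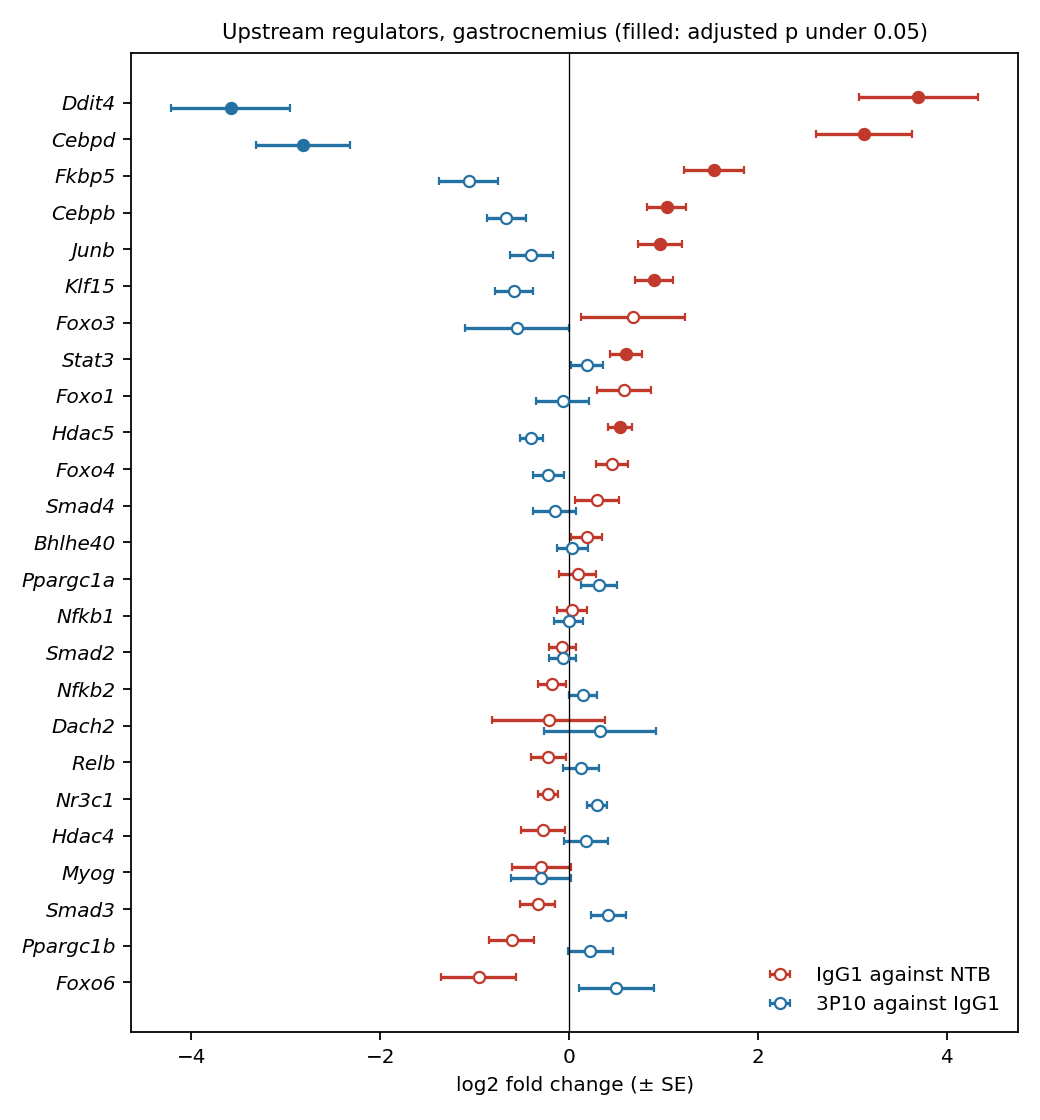
Log2 fold change ± SE in gastrocnemius of the 25 genes listed as regulators of Fbxo32 and Trim63 or as glucocorticoid response genes. IgG1 against NTB and 3P10 against IgG1 are shown, ordered by the first. Filled points passed: 8 above 0 in IgG1 against NTB, and Ddit4 and Cebpd below 0 in 3P10 against IgG1.

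In the lists for the rest of the ubiquitin pathway, 0 to 2 genes each passed in muscle, beside 5.6% of all genes. Of 19 other ligases linked to muscle wasting, 1 rose and 0 fell in IgG1 against NTB: Fbxo31, an F-box gene, at 0.52 (SE 0.13, adjusted p = 0.0327). Of 15 genes of the cullin core and its neddylation, 0 passed by edgeR and 3 had an unadjusted p under 0.05. Of 19 genes for ubiquitin and its activating and conjugating enzymes, Ube2j1 rose by 0.51 and Ube2n fell by 0.49. Of 9 NEDD4-family genes, Nedd4l rose by 0.60 (SE 0.15, adjusted p = 0.0284), and of 17 TRAF genes and partners Traf1 fell, with 13 reads over the IgG1 libraries and 46 over NTB. Without the 4 libraries that stood apart, Nedd4l and Traf1 did not pass and Fbxo31 did.

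In a list of 15 genes headed deubiquitinases and unfoldase, Ube4a, itself a ubiquitin ligase gene, rose by 0.89 (SE 0.17, adjusted p = 0.00655). Nploc4, a cofactor of the p97 unfoldase, rose by 0.77 (adjusted p = 0.0187). Of 20 known ligase substrates, Eif3f, a translation factor subunit that atrogin-1 marks for degradation, rose by 0.71 (SE 0.15, adjusted p = 0.0145). Of 9 genes that respond to denervation, Gadd45a rose by 1.08 (SE 0.24, adjusted p = 0.0157). Ube4a, Nploc4, Eif3f and Gadd45a passed without the 4 libraries as well. In 3P10 against IgG1 no gene of these lists passed in the main edgeR fit. With the side of the 4 libraries as a term, 668 genes passed in all. Of the genes named here, Eif3f (-0.40, adjusted p = 0.0185), Ube4a (-0.65, adjusted p = 0.0312) and Nploc4 (-0.56, adjusted p = 0.0345) then fell. Fbxo31 and Gadd45a did not pass in that fit.

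Fibroblast markers were lower in IgG1 muscle: 5 of 10 fell, among them Col1a1 by 1.86, where 5.6% of all genes passed. The 10 summed to 1023 to 1259 CPM in NTB, 523 to 832 in IgG1 and 605 to 829 in 3P10. Of 15 skeletal muscle markers 1 fell, of 8 satellite cell markers 1 rose and 1 fell, of 10 endothelial markers 1 fell, and of the adipocyte, macrophage, slow-fibre and fast-fibre markers none passed. Adipocyte markers summed to 435 to 1145 CPM in NTB, 606 to 1805 in IgG1 and 520.4 to 1956 in 3P10. The part of these markers in the ligase values was not tested.

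The genes whose profile over the 15 muscle libraries lay nearest to Fbxo32 were Klhl38, Zpr1, Fam134b, Gps2 and Trim63, out of 11661 genes of at least 1 CPM. Nearness is the root mean square difference between log2(CPM + 0.5) profiles, each centred on its own mean, and it was 0.254 for Klhl38 and 0.337 for Trim63. Klhl38, which encodes a kelch-domain protein, spanned 75.0 to 113 CPM among NTB libraries, 138 to 323 among IgG1 and 82.5 to 142 among 3P10. Nearest to Trim63 were Tubb4b (0.20), Ccdc174, Rpl10, Eif1 and Cnpy3 (0.215). Tubb4b spanned 121 to 191 CPM among NTB libraries and 124 to 319 among IgG1, with IgG1 2 and 4 at 319 and 264 CPM. In all 10 profiles the highest library was IgG1 2 or IgG1 4, and both of those libraries stood apart.

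In white fat, Fbxo21 was the member that moved. Against NTB it rose in IgG1 by 0.94 (SE 0.21, adjusted p = 0.0191), a fitted 1.91-fold, and against IgG1 it fell in 3P10 by 0.80 (SE 0.21, adjusted p = 0.0373). It was 1 of 7 in each case, and of all genes 8.64% passed in the first comparison and 7.42% in the second. In 3P10 against NTB no gene passed by edgeR (0%), 19 passed by DESeq2, 3.76% had an unadjusted p under 0.05, and Fbxo21 gave 0.14 (SE 0.21, 95% interval -0.32 to 0.60).

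The white fat levels of Fbxo21 were 83.2, 106, 141, 85.4 and 111.9 CPM in NTB, 155, 182, 242, 252 and 179 CPM in IgG1, and 81.1, 155, 108, 86.5 and 150.0 CPM in 3P10. Every IgG1 library lay above every NTB library, as was so for 8.85% of genes in either direction, and the highest 3P10 library only reached the lowest of IgG1. Without IgG1 2 and 4, left out after the data were seen, the values were 0.86 (adjusted p = 0.0863) and -0.72 (adjusted p = 0.167), and 93 and 15 genes passed in all.

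In brown fat Fbxo21 also rose in IgG1 against NTB, by 0.61 (SE 0.15, adjusted p = 0.0280), with 2.97% of genes called. There it rose in 3P10 against NTB as well, by 0.52 (SE 0.14, adjusted p = 0.0333), with 5.75% called, and in 3P10 against IgG1 it gave -0.09 (SE 0.14, 95% interval -0.40 to 0.22), with 11.6% called. NTB libraries ran from 92.4 to 155 CPM with a median of 124. IgG1 libraries were at 209, 149, 184, 173 and 222 CPM, and 3P10 libraries ran from 131 to 238 CPM with a median of 162. Both tumour-bearing groups overlapped the NTB range at its top. In 3P10 against NTB 3 of 9 tested fibroblast markers fell and 2 of 10 adipocyte markers rose. Fibroblast markers summed to 612 to 948 CPM in NTB and 540.2 to 756 in 3P10, and adipocyte markers to 12043 to 17246 and 14308 to 22233 CPM. Their part in the Fbxo21 values was not tested, and the first component and 3P10 cannot be told apart.

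The single-library dependence of these calls was as follows. The white fat rise in IgG1 gave an adjusted p of 0.0532 without NTB 1 and passed without any other library. The white fat fall in 3P10 no longer passed without IgG1 2, 4 or 5 or without 3P10 1, 3 or 4, and its value stayed between -0.94 and -0.69. In brown fat the IgG1 call was lost without IgG1 1, 3 or 5 or NTB 3 or 6, and the 3P10 call without 3P10 4 or 6 or NTB 1, 3, 4 or 6, with values from 0.54 to 0.69 and from 0.42 to 0.60.

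**Figure D4:**
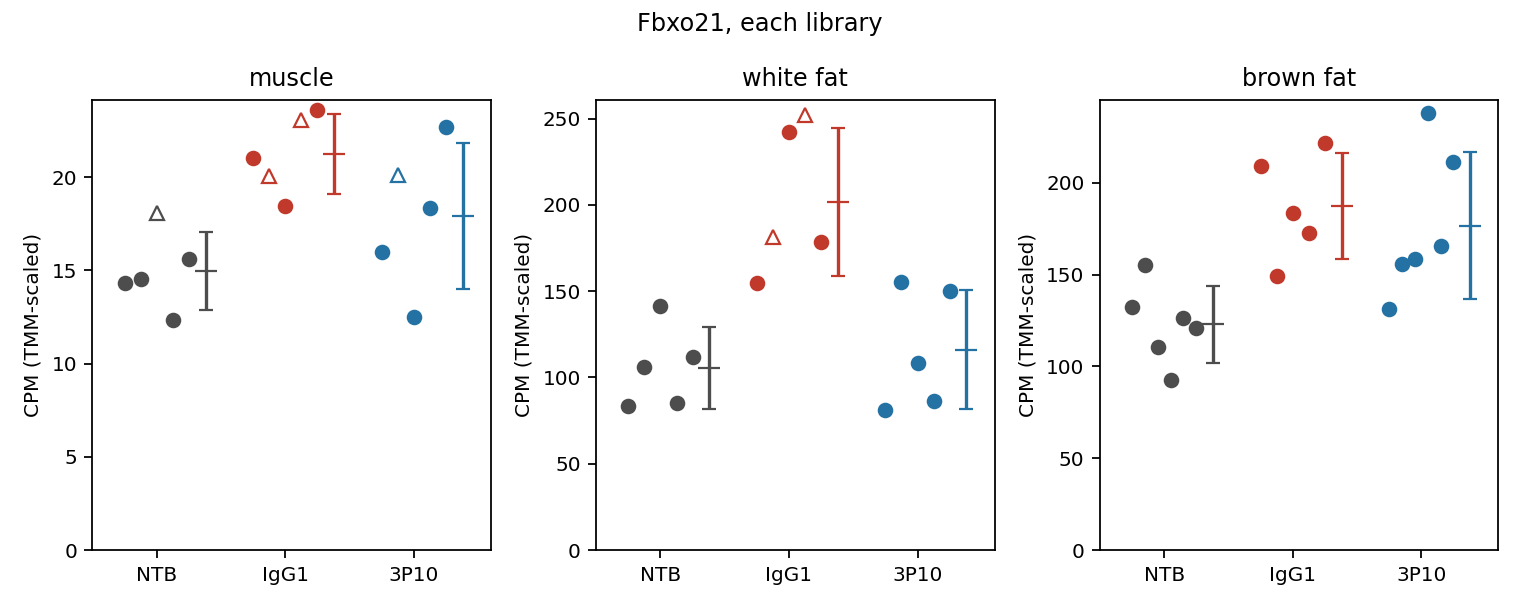
CPM of Fbxo21 in each library of muscle, white fat and brown fat; open triangles are libraries that stood apart in muscle and in white fat, and bars give mean ± SD. In white fat the IgG1 libraries lay at 155 to 252 CPM, the NTB ones at 83.2 to 141; levels of brown fat came from another library kit and are not compared with the other tissues.

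The other 6 genes did not pass in white fat. Fbxo32 ran from 24.5 to 73.4 CPM over the 15 libraries, with -0.08 (SE 0.29, 95% interval -0.72 to 0.56) in IgG1 against NTB. Ubb was at 125 to 151 CPM in NTB, 134 to 249.8 CPM in IgG1 and 77.5 to 164 CPM in 3P10, with -0.59 (SE 0.19, adjusted p = 0.0670) in 3P10 against IgG1 and 5 of 5 3P10 libraries below the IgG1 mean. DESeq2 called that fall, at an adjusted p of 0.0228. Nedd4 spanned 903 to 1798 CPM, Traf6 27.9 to 34.7 CPM and Fbxo30 10.9 to 17.9 CPM, and the estimate farthest from 0 among these 3 genes was -0.23, for Fbxo30 in 3P10 against NTB.

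Trim63 in white fat was at 1.85 to 2.95 CPM in NTB, 2.55 to 4.09 CPM in IgG1 and 2.25, 8.13, 6.95, 3.6 and 4.17 CPM in 3P10. In 3P10 against NTB it gave 0.99 (SE 0.30, adjusted p = 0.894). The 15 skeletal muscle markers summed to 1801 to 4592 CPM in 3P10 white fat, against 1738 to 2600 CPM in NTB, and with their mean as a term the value was 0.44 (SE 0.27).

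In brown fat Fbxo32 was at 49.1 to 73.6 CPM in NTB, 29.8 to 63.2 CPM in IgG1 and 56.4 to 88.4 CPM in 3P10. All 6 3P10 libraries lay above the IgG1 mean, and the value in 3P10 against IgG1 was 0.46 (SE 0.16, adjusted p = 0.0634). It passed with the skeletal muscle marker mean as a term (adjusted p = 0.0193). In IgG1 against NTB it gave -0.40 (SE 0.16, adjusted p = 0.194).

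Brown fat counts of Trim63, Ubb, Fbxo30 and Traf6 were small. Trim63 had 76, 35 and 40 reads over all NTB, IgG1 and 3P10 libraries and 0 reads in 3P10 2, which allows up to 2.49 CPM there. The 15 skeletal muscle markers in brown fat ranged from 832 to 3164 CPM in NTB, 197 to 2408 CPM in IgG1 and 44.8 to 2375 CPM in 3P10. Ubb had 68, 28 and 65 reads in the same order, and neither Ubb nor Fbxo30 passed. Nedd4, with 539 to 649 CPM, gave 0.02 (SE 0.07, 95% interval -0.13 to 0.17) in IgG1 against NTB, and Traf6 gave 0.29 (SE 0.20, adjusted p = 0.50).

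Another F-box gene, Fbxo31, rose in all 3 tissues. It rose in IgG1 against NTB by 1.41 in white fat (SE 0.24, adjusted p = 0.00658) and 1.12 in brown fat (SE 0.18, adjusted p = 0.00292), beside the 0.52 of muscle. In 3P10 against IgG1 it fell by 1.05 in white fat (adjusted p = 0.0228) and by 1.14 in brown fat (adjusted p = 5.22e-04). Without IgG1 2 and 4 the white fat values of Fbxo31 were 0.93 (adjusted p = 0.0370) and -0.57 (adjusted p = 0.148). Usp2, a deubiquitinase gene, rose in IgG1 by 1.61 in white fat (SE 0.27) and 0.96 in brown fat (SE 0.21), and fell in 3P10 against IgG1 by 1.31 and by 1.08. Without IgG1 2 and 4 its white fat values were 1.19 (adjusted p = 0.0249) and -0.88 (adjusted p = 0.0853). In muscle Usp2 did not pass in the main fit of IgG1 against NTB. It passed there without the 4 libraries that stood apart (0.75, adjusted p = 0.0304) and with their side as a term (0.57, adjusted p = 0.0213). Usp2 is also known as an output of the circadian clock.

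In white fat, 3 of 19 other wasting ligases rose in IgG1 against NTB and 1 fell, Ubr2 rising by 0.53 and Ubr4 by 0.37, and 3 fell in 3P10 against IgG1. Of the 15 cullin core genes Cul1, the scaffold that holds F-box proteins such as Fbxo21, rose by 0.46 (SE 0.10, adjusted p = 0.0151) and fell by 0.42 in 3P10 against IgG1 (adjusted p = 0.0264). Of 23 genes tested from the regulator list, 3 rose in IgG1 against NTB and 1 fell. Fkbp5 rose by 2.06, Klf15 by 0.58 and Cebpd by 1.68. In the fit without IgG1 2 and 4, 93 genes passed in all in IgG1 against NTB. Of the ligase, cullin, deubiquitinase and regulator lists only Fbxo31 and Usp2 passed in that fit, and 3 of 10 fibroblast markers fell. There Klf15 gave 0.57 (adjusted p = 0.129), Cebpd 1.72 (adjusted p = 0.130) and Fkbp5 1.61 (adjusted p = 0.0631). In 3P10 against IgG1 every call of these lists and of the marker lists, Cul1 included, was lost in that fit. Fibroblast markers summed to 3101 to 4643 CPM in NTB, 748 to 2025 in IgG1 and 1815 to 3789 in 3P10 white fat, 6 of 10 falling in IgG1 and 6 rising in 3P10 against IgG1. Macrophage markers summed to 301 to 559, 184 to 389.9 and 337 to 723 CPM, 3 of 10 rising in 3P10 against IgG1, and their part in the Fbxo21 values was not tested.

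In brown fat, of 9 NEDD4-family genes Nedd4l fell by 0.72 in IgG1 against NTB (SE 0.17, adjusted p = 0.0261), where 2.97% of all genes passed. Nedd4l thus moved opposite in sign to muscle, a difference that was not tested. In 3P10 against IgG1 it rose by 0.98 (SE 0.16, adjusted p = 7.72e-04), from 47.2 to 92.2 CPM. Of 14 other wasting ligases 1 rose and 3 fell in 3P10 against IgG1, where 11.6% of all genes passed. Trim32, whose product acts on desmin, rose by 0.95 (adjusted p = 0.0164). Of 14 genes tested from the deubiquitinase and unfoldase list 4 fell, among them the ligase gene Ube4a by 0.69. Of 19 genes tested from the regulator list Smad3 rose, Fkbp5 fell by 2.89 and Foxo1 fell by 0.63. Endothelial markers summed to 1341 to 2083 CPM in NTB, 991 to 1887 in IgG1 and 919 to 1396 in 3P10. In 3P10 against NTB 5 of 9 tested fell, where 5.75% of all genes passed. The part of these markers in the brown fat values was not tested.

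Muscle and white fat libraries came from the same kit, and a joint fit set their levels on 1 scale. In NTB mice Fbxo32 was 15.4 times and Trim63 226 times as high in muscle as in white fat, with no overlap of libraries. Ubb was 1.65 times as high in muscle, and Fbxo21 3.63 times as high in white fat, again without overlap. These ratios depend on the scaling across tissues. Scaled within each tissue, the NTB mean of Ubb was 122 CPM in muscle (96.7 to 181) and 143 CPM in white fat (125 to 151). The direction for Ubb thus turned on the scaling, while those for Fbxo32, Trim63 and Fbxo21 did not. In the joint fit the NTB ranges of Nedd4, Traf6 and Fbxo30 overlapped between both tissues. Scaled within each tissue, those of Nedd4 and Traf6 did not. NTB Nedd4 was then at most 588 CPM in muscle and at least 903 CPM in white fat, and Traf6 at most 20.1 and at least 27.9 CPM. The directions for Traf6 and Fbxo30 also turned on the scaling. Their joint ratios were 1.22 and 1.42 times as high in muscle. Within tissues, NTB means in muscle and white fat were 18.4 and 29.2 CPM for Traf6, and 10.8 and 14.8 CPM for Fbxo30.

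Whether an effect differed between muscle and white fat was tested as an interaction. The 15 muscle and 15 white fat libraries carry the same bracketed numbers in the same groups, which may mark shared animals, though the labels do not say so. Same-numbered libraries of both tissues correlated from -0.11 to 0.15 in their deviations from the group means, and the fit treats them as independent. None of the 7 genes passed, among 166 of 14898 genes (1.11%) for IgG1 against NTB and 31 (0.208%) for 3P10 against IgG1. The Fbxo32 value, muscle minus white fat, was 1.49 (SE 0.44, adjusted p = 0.0858) for IgG1 against NTB and -1.01 (SE 0.44, adjusted p = 0.262) for 3P10 against IgG1. For Trim63 these were 0.50 (SE 0.45) and -1.20 (SE 0.44, adjusted p = 0.183), and for Fbxo21 -0.46 (SE 0.27) and 0.59 (SE 0.27, adjusted p = 0.296). With the bracketed number as a block, 21 and 5 genes passed, and Fbxo32 gave 1.21 (SE 0.33, adjusted p = 0.137) and -0.78 (SE 0.33, adjusted p = 0.317). At this number of libraries a difference between the tissues was not shown for Fbxo32 or for Fbxo21, although each passed in 1 of the 2 tissues and not in the other.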

How the data were processed

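Gastrocnemius, white fat and brown fat libraries were sequenced single-end. Per the labels' protocols, brown fat was prepared with a 3′-end kit with a UMI module, and muscle and white fat with another, directional kit. The deposited values are whole-number read counts per gene. Per the submitters' processing notes, the tools were Trim Galore, STAR 2.6.0a, featureCounts 1.6.2 and edgeR 3.22.3 with build mm9. The annotation, the strand setting and the use of UMIs are not given in the sources used here. Gm15943 lies antisense to Fbxo32, so without a known strand setting reads from both cannot be told apart.

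From the deposited counts, each tissue was fitted over its 3 groups with edgeR 4.0.16 (R 4.3.3): TMM scaling, filterByExpr with a minimum count of 10 and a minimum total of 15, and the quasi-likelihood test with Benjamini-Hochberg adjustment over all genes tested. Genes tested numbered 13283 in muscle, 14402 in white fat and 8711 in brown fat. Log2 fold changes and adjusted p-values come from these fits unless another fit or setting is named beside them. A joint fit of muscle and white fat tested the difference of effects between both tissues. DESeq2 1.42.0 and other settings were alternatives. A count of 0 allows up to 3 counts: 0.0838 to 0.143 CPM in muscle, 0.0395 to 0.161 in white fat and 1.25 to 3.68 in brown fat. Intervals of fold changes are 95% intervals, and floors cover counting error only.

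The 7 genes and the gene lists were chosen with earlier results of these data known. The text names all 7, up to 6 called genes per list in muscle and up to 3 in each fat tissue by smallest adjusted p, and the 5 nearest profiles to Fbxo32 and to Trim63. Junb and Stat3 of the regulator list are named beyond that limit, without values. Within a tissue, same-numbered libraries of different groups had correlated deviations (over 0.1) in 9 of 15 muscle pairs, 8 of 15 white fat pairs and 0 of 16 brown fat pairs, with muscle values down to -0.60. Since not every pair passed 0.1 and no label ties the numbers to animals, they were not taken as pairs. Promoter windows came from RefSeq on GRCm38.p6, not the build of the counts.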

Additional observations from a re-analysis of the deposited data

Results flagged for a closer look

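Among 63 groups of 5 or 6 libraries, 4 had a library far from the others by Dixon's test at 95%, which chance gives in about 5% of groups. In NTB muscle, replicate 3 had 228 CPM of Nedd4, with the nearest library at 507 CPM. The same replicate had 181 CPM of Ubb, with the nearest at 115 CPM. It is 1 of the 4 muscle libraries that stood apart on the first principal component. In NTB white fat, replicate 1 had 125 CPM of Ubb, with the nearest at 145 CPM. In 3P10 brown fat, replicate 4 had 88.4 CPM of Fbxo32, with the nearest at 68.0 CPM.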

How the results depend on the processing

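Over 77 values of the 7 genes and 1159 recomputed values, 1077 kept their direction and side of the threshold. Of 91 recomputed values of the 5 called results, 67 stayed past the threshold. Signs turned in 46, of which 40 came from leaving out 1 library, and none of those was a called value. Scaling by RLE factors, no filter on low counts, and a filter of 1 CPM in 5 libraries moved no count of called genes by over 1.5 times and no member's call.

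With DESeq2, 1326, 284 and 15 genes passed in muscle (IgG1 against NTB, 3P10 against IgG1, 3P10 against NTB), and 2551, 2282 and 19 in white fat, with 2 of the 7 in muscle IgG1 against NTB and 2 in white fat 3P10 against IgG1. Fitting the compared groups only gave 347 and 7 genes in muscle, 154 in brown fat IgG1 against NTB, and 105 in white fat 3P10 against IgG1, with 0 of the 7 there and -0.81 for Fbxo21. Without the 4 muscle libraries that stood apart, 18 genes passed in 3P10 against IgG1, Trim63 gave 0.0777 there and Traf6 -0.00592 in 3P10 against NTB. With their side as a term 2455, 668 and 5 genes passed, 4 of the 7 passed in IgG1 against NTB, and Traf6 gave 0.0211 and -0.0129 in the first and second comparison. The skeletal muscle marker term gave 108 genes in white fat 3P10 against IgG1, 0 of the 7, -0.94 for Fbxo21 and 0.045 for Fbxo30, and -0.16 for Nedd4 in 3P10 against NTB. In brown fat it gave 135 genes in IgG1 against NTB and 1 of the 7 in 3P10 against IgG1. Without white fat IgG1 2 and 4, an alternative chosen after seeing the data, 93 and 15 genes and 0 of the 7 passed, with Fbxo21 at 0.86 and -0.72. The cause of these changes was not tested.

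With the replicate number as a block, 418 and 12 genes passed in muscle, 164 in brown fat IgG1 against NTB, and, with the bracketed number as the block, 21 and 5 for the difference between tissues. Under the block 0 of the 7 passed in brown fat, with Fbxo21 at 0.63 (adjusted p = 0.0524) in IgG1 against NTB and 0.52 (adjusted p = 0.0640) in 3P10 against NTB. Same-numbered libraries correlated from -0.60 to 0.56 in muscle, -0.21 to 0.47 in white fat and -0.14 to 0.08 in brown fat. These ranges cannot settle whether such samples share more than a number.

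Leaving out 1 library at a time gave counts of called genes of 327 to 1307 in muscle, IgG1 against NTB, 8 to 231 in muscle, 3P10 against IgG1, 344 to 2354 in white fat, IgG1 against NTB, 127 to 2304 in white fat, 3P10 against IgG1, 34 to 554 in brown fat, IgG1 against NTB, 646 to 1120 in brown fat, 3P10 against IgG1, 172 to 675 in brown fat, 3P10 against NTB. Of the 7, 1 to 3 in muscle, IgG1 against NTB, 0 to 1 in muscle, 3P10 against IgG1, 0 to 1 in white fat, IgG1 against NTB, 0 to 1 in white fat, 3P10 against IgG1, 0 to 1 in brown fat, IgG1 against NTB, 0 to 1 in brown fat, 3P10 against IgG1, 0 to 2 in brown fat, 3P10 against NTB passed. For Fbxo21 the log2 fold change ranged from 0.42 to 0.60 in brown fat, 3P10 against NTB, from 0.54 to 0.69 in brown fat, IgG1 against NTB, from -0.94 to -0.69 in white fat, 3P10 against IgG1, from 0.84 to 1.09 in white fat, IgG1 against NTB. For Fbxo32 the log2 fold change ranged from -0.0322 to 0.11 in brown fat, 3P10 against NTB, from -1.12 to -0.65 in muscle, 3P10 against IgG1, from -0.12 to 0.25 in white fat, 3P10 against IgG1, from -0.20 to 0.33 in white fat, 3P10 against NTB, from -0.20 to 0.22 in white fat, IgG1 against NTB. For Fbxo30 the log2 fold change ranged from -0.11 to 0.13 in brown fat, 3P10 against IgG1, from -0.15 to 0.0432 in brown fat, 3P10 against NTB, from -0.19 to 0.0633 in brown fat, IgG1 against NTB, from -0.0627 to 0.19 in muscle, 3P10 against NTB, from -0.11 to 0.0244 in white fat, 3P10 against IgG1. For Nedd4 the log2 fold change ranged from -0.24 to 0.0515 in muscle, 3P10 against IgG1, from -0.0507 to 0.30 in muscle, 3P10 against NTB, from -0.19 to 0.063 in white fat, 3P10 against IgG1, from -0.0655 to 0.11 in white fat, 3P10 against NTB, from -0.0259 to 0.19 in white fat, IgG1 against NTB. For Traf6 the log2 fold change ranged from -0.0302 to 0.0819 in muscle, 3P10 against IgG1, from -0.0389 to 0.0602 in muscle, 3P10 against NTB, from -0.0771 to 0.0257 in muscle, IgG1 against NTB. Depth limits Trim63, Ubb and Fbxo30 in brown fat.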
